A study of Mus musculus with 2 samples.

Results

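The SLC25 family is made up of the mitochondrial carriers, transporters that move metabolites, nucleotides and cofactors across the inner mitochondrial membrane. The genes described here were chosen by name: every mouse gene with a protein-coding transcript in GENCODE release M21 whose symbol starts with Slc25a, leaving out pseudogene names and Slc25a28, Slc25a37 and Slc25a38, which serve iron and heme supply. This rule, which uses no measured value, gave 44 genes out of 55536 in the gene table, of which 21901 had a protein-coding transcript. The carriers share a fold of paired membrane helices in repeated units. They feed the respiratory chain and ATP synthase with phosphate and adenine nucleotides, shuttle citrate, malate, oxoglutarate and amino acids between matrix and cytosol, and bring in cofactors made outside the matrix. In red cell precursors mitochondria also carry out the first and last steps of heme synthesis, and SLC25A39, a glutathione carrier, was linked to heme synthesis in erythroid cells before its substrate was known.

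Polyadenylated RNA had been sequenced, as paired-end reads, from G1E-ER4, an immortalized mouse erythroid line. The line descends from Gata1-null cells and carries a GATA1 fusion to an estrogen receptor domain, so that estradiol switches GATA1 on and starts differentiation. All cells had received 17beta-estradiol at 10 nM for 24 h, and the 2 libraries, labelled biological replicates 1 and 2, form 1 group with no untreated or parental sample. They share 1 biosample record, and no label names separate cultures, so their spread measures these libraries and may be technical. The values below are therefore levels in treated cells of a single line, and no p-value is given.

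The libraries differed 5.06 times in depth, with 71485617 expected counts (the authors' estimate of fragments per gene) in replicate 1 and 14121747 in replicate 2. All 12 erythroid markers examined reached 1 TPM (the authors' abundance per transcript length, scaled to the same total in each table) in both replicates, and their summed level was 203528 TPM in replicate 1 against 76378 TPM in replicate 2. Globins held most of this sum, with Hbb-bs at 97719 and 34786 TPM and Hba-a1 at 67200 and 30385 TPM. The median over the list was 680 and 514 TPM. In replicate 2, 7 markers were over 2-fold lower and 1, Klf1, was higher, while Gata1 was at 2890 and 2661 TPM. Markers of mast cells and basophils (5), lymphoid cells (5), stroma and endothelium (5), and granulocytes and monocytes (6) were all below 1 TPM, with list sums of at most 0.55 TPM. Of 5 megakaryocyte markers Gp1ba, Itga2b and Gp9 reached 1 TPM, with a summed level of 21.5 and 35.3 TPM over the list, and Pf4 and Gp6 had 0 counts. In bulk RNA a lower level cannot be told apart as fewer cells with the transcript or less of it per cell.

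The sequences below, 5′ to 3′ from the GENCODE M21 transcripts on the minus strand of mm10, show what separates the transcripts to which the reads of 4 carriers were assigned. Slc25a3, the phosphate carrier, has 2 alternative versions of exon 3. Form A, the version known from heart and skeletal muscle, lies at chr10:91122207-91122331, and form B, used widely, at chr10:91121922-91122043. The exon is in capitals and the lower-case flanks are the last 15 bases of exon 2 and the first 15 bases of exon 4.
Slc25a3 exon 3 form A: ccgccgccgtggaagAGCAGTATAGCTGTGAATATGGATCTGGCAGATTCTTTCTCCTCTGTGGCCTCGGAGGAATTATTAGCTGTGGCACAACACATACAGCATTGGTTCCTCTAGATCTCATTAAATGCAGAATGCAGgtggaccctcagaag
Slc25a3 exon 3 form B: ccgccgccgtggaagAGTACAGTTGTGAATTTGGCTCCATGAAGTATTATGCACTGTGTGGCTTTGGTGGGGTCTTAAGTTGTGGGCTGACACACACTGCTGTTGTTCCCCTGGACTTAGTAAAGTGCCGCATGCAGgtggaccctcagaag
Form A has 125 bases and form B 122, a difference of 3 bases that keeps the reading frame. The closest alignment of both forms has 44 edits, which leaves 64.8% of the longer exon alike.

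For Slc25a11, the oxoglutarate/malate carrier, the transcript Slc25a11-205 keeps the intron of 85 bases between exons 2 and 3 (chr11:70645991-70646075, in capitals with 15 bases of each exon).
Slc25a11-205: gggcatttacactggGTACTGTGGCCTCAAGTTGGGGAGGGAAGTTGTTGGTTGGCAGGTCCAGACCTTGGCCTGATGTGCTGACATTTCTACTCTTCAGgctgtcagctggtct
Read on in the frame of the coding transcript Slc25a11-201, the first stop codon starts at base 59 of that intron. Slc25a4, an ADP/ATP carrier, has a transcript, Slc25a4-202, that runs from exon 3 into 428 bases of the following intron of 777 bases. Its first 40 intron bases (chr8:46208358-46208397) are in capitals, beside the first 40 bases of exon 4 (chr8:46207581-46207620) that follow the same 20 bases in the coding transcript Slc25a4-201.
Slc25a4-202: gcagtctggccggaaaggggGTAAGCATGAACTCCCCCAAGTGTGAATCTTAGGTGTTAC
Slc25a4-201: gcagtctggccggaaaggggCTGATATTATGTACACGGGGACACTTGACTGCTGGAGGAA
In the frame of Slc25a4-201 the first stop codon starts at base 24 of the intron.

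For Slc25a12, an aspartate/glutamate carrier, the transcript Slc25a12-207 leaves out exon 4 of the coding transcript Slc25a12-206 (chr2:71333605-71333720). That exon, in capitals, has 116 bases, which is not a multiple of 3. In the second line the capitals mark the last base of exon 3 and the first base of exon 5.
Slc25a12-206: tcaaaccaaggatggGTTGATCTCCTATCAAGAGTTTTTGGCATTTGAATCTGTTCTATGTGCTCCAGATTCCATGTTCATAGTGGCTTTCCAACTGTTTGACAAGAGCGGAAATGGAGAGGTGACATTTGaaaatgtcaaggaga
Slc25a12-207: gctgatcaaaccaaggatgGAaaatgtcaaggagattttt
In the frame of exon 3, the first stop codon of the joined form starts at base 53 of the 140 bases of exon 5. The annotation lists Slc25a12-207 as subject to nonsense-mediated decay, the pathway that degrades transcripts with an early stop.

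Of the 44 carriers, 25 were detected, meaning 1 TPM or more in both replicates, against 33.3% of all protein-coding genes. With each replicate taken singly, 29 carriers reached 1 TPM in replicate 1, and in replicate 2 the same 25 that were detected. At 10 TPM or more in both stood 12 carriers (18% of all protein-coding genes), and at 100 TPM or more 3, Slc25a39, Slc25a3 and Slc25a1. Another 8 had 0 counts in both libraries (40.5% of all protein-coding genes), and 5 had counts in replicate 1 and 0 in replicate 2, the library with fewer counts. No share over all genes was counted for these 5, for the 3 at 100 TPM or for each replicate taken singly. Over all 44, the median level was 2.68 TPM in replicate 1 against 2.35 TPM in replicate 2. Over the detected carriers it was 13.4 and 9.72 TPM, lower than the 20.2 and 15.3 TPM of all detected protein-coding genes. Together the carriers took up 0.155% of replicate 1 TPM and 0.136% of replicate 2 TPM (mean 0.145% ± 0.0137, SD, n = 2).

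**Figure D1:**
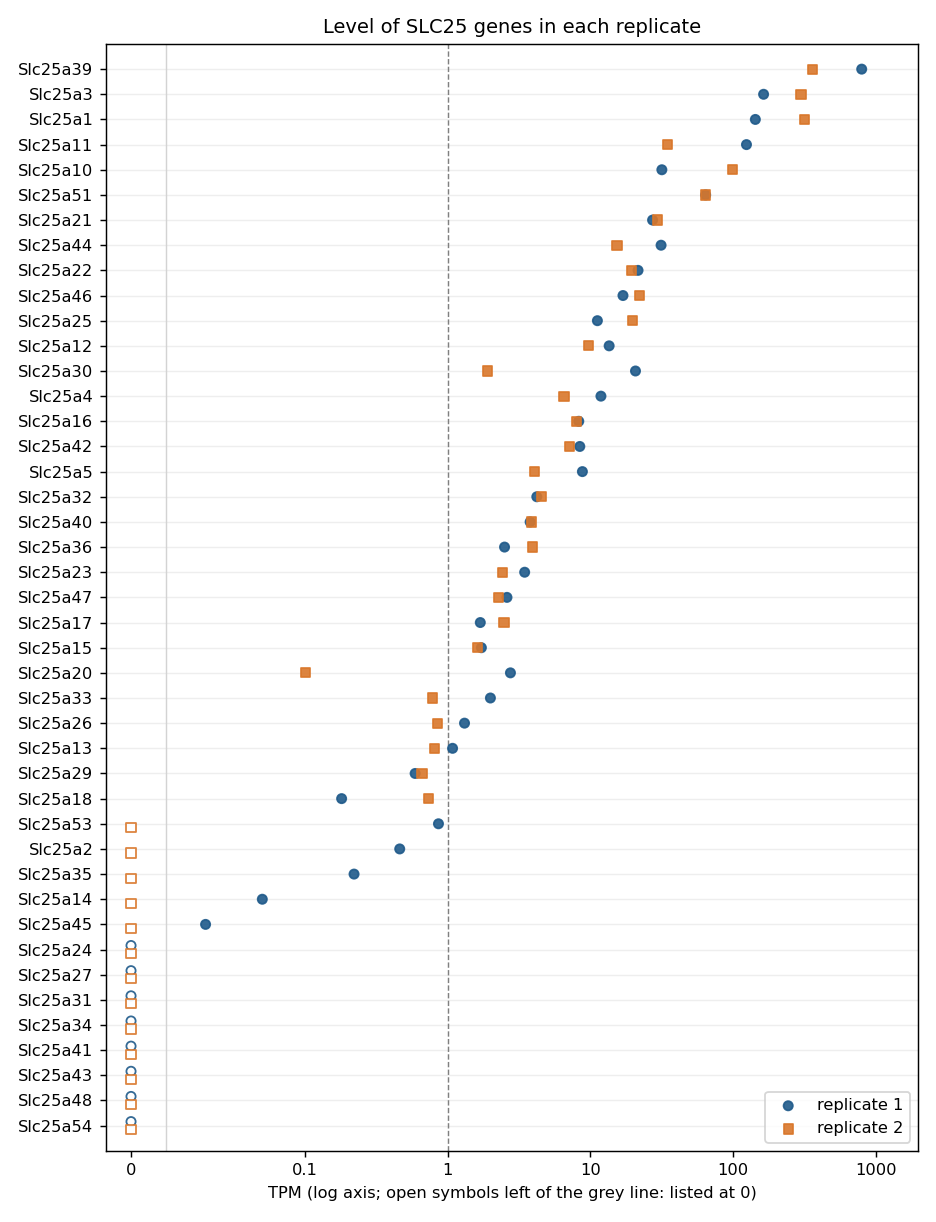
TPM of 43 carriers in replicate 1 (circles) and replicate 2 (squares) on a log axis, ordered by mean, with open symbols for values listed at 0 and a dashed line at 1 TPM. Slc25a39 is highest in both replicates at 800 and 363 TPM, and 24 of those drawn have both symbols at or right of the line.

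A few carriers held most of the family's RNA. Slc25a39, the glutathione carrier, was highest in both libraries, at 799.83 TPM (replicate 1) and 363.34 TPM (replicate 2), or 582 ± 309 TPM (SD, n = 2). It ranked 127 and 350 among all protein-coding genes and made up 51.6% of carrier TPM in replicate 1 but 26.8% in replicate 2. Slc25a3 was at 164.00 and 300.25 TPM, a mean of 232 ± 96.3 TPM. Slc25a1, the citrate carrier that exports acetyl units for lipid synthesis, was at 143.57 and 315.69 TPM, a mean of 230 ± 122 TPM. These 3 genes together made up 71.4% of carrier TPM in replicate 1 and 72.2% in replicate 2, so their joint part was alike while the split among them was not.

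Among the 8 carriers of adenine nucleotides and phosphate, 5 were detected, summing to 199 TPM in replicate 1 against 333 TPM in replicate 2. Slc25a3, which brings in the phosphate for ATP synthase, supplied most of it in both. The ADP/ATP carriers, which exchange ATP made in the matrix for cytosolic ADP, were far lower: Slc25a4 was at 11.86 and 6.53 TPM and Slc25a5 at 8.79 and 4.08 TPM. Slc25a31, the testis form, had 0 counts in both libraries. Slc25a5 thus made up 42.6% and 38.5% of ADP/ATP carrier TPM, a mean of 40.5% ± 2.91 (SD, n = 2). In the transcript table made directly from reads the share was 49.7% and 67.1%, so which of Slc25a4 and Slc25a5 led in replicate 2 depended on the quantification. Slc25a5 has 7 annotated pseudogene copies with 91.6% to 98.3% identity to its transcripts, all at 0 TPM here and at a sum of 0.225 and 0.104 TPM in the table made from reads.

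The ATP-Mg/phosphate carriers adjust the matrix adenine nucleotide pool under control of calcium. Slc25a25 was at 11.20 and 19.65 TPM and Slc25a23 at 3.46 and 2.42 TPM. Their paralogs Slc25a24 and Slc25a41 had 0 counts in both libraries. Slc25a25 led this group in both replicates, with 76.4% and 89.0% of its TPM.

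Among the 9 carriers of di- and tricarboxylates and relatives of the uncoupling proteins, 5 were detected, with 348 and 481 TPM in sum. Slc25a11, which exchanges oxoglutarate for malate in the malate-aspartate shuttle, was at 124.40 and 34.85 TPM. Slc25a10, the dicarboxylate carrier that exchanges malate or succinate for phosphate, was at 31.72 and 99.00 TPM. The order of this pair turned over between the libraries: Slc25a10 made up 20.3% of their summed TPM in replicate 1 and 74.0% in replicate 2. In the table made from reads it made up 17.1% and 39.3%, so Slc25a11 led in both libraries there. In the main table the coding Slc25a10-201 was at 30.90 and 98.45 TPM and the coding Slc25a11-201 at 16.37 and 22.31 TPM. By these main coding transcripts Slc25a10 was higher in both libraries, so the turn was one of gene totals. Slc25a21, the oxodicarboxylate carrier of lysine and tryptophan breakdown, was at 27.30 and 29.50 TPM and differed little. Slc25a30, an uncoupling-protein relative, was at 20.72 and 1.91 TPM on 575 and 18 counts. Its relatives Slc25a14, with 4 and 0 counts, and Slc25a27, with 0 counts in both, were near or at the floor, as were Slc25a35, with 15 and 0 counts, and Slc25a34, with 0 in both.

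Of the 8 amino acid carriers 4 were detected, with 70.5 and 48.2 TPM in sum. Slc25a44, a carrier of branched-chain amino acids, was at 31.32 and 15.35 TPM and Slc25a22, a glutamate carrier, at 21.59 and 19.31 TPM. Its paralog Slc25a18 was at 0.18 and 0.73 TPM, so Slc25a22 held 99.2% and 96.4% of that pair. The aspartate/glutamate carrier Slc25a12, a component of the malate-aspartate shuttle, was at 13.54 and 9.72 TPM, and its paralog Slc25a13, the main form of liver, at 1.08 and 0.81 TPM. Slc25a12 held 92.6% and 92.3% of this pair by gene. The coding Slc25a12-206 was at 0.40 and 0.18 TPM and the coding Slc25a13-203 at 0.87 and 0.16 TPM. By these coding transcripts Slc25a13 was higher in replicate 1. In replicate 2 they were near even, on 13.6 and 6 expected counts. The ornithine carrier Slc25a15 was at 1.72 and 1.62 TPM, the lowest mean among the detected carriers. Slc25a2, the other ornithine carrier, had 41 and 0 counts, and Slc25a29, a carrier of basic amino acids, was at 0.59 and 0.66 TPM.

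Carriers of cofactors, nucleotides, carnitine and glutathione formed the largest group, 12 genes with 9 detected and 912 and 470 TPM in sum, most of it Slc25a39. Its paralog Slc25a40 was at 3.78 and 3.88 TPM, so that Slc25a39 held 99.5% and 98.9% of the pair. Slc25a51, the NAD+ carrier, was at 64.34 and 64.23 TPM. These equal TPM values rested on unequal counts, 9700 and 3417, which are 136 and 242 CPM (counts scaled to library size). The difference lies in the effective length used to compute TPM, 2080 bases in replicate 1 and 4308 bases in replicate 2, since a short transcript, Slc25a51-205, took 35.77 TPM in replicate 1 and 0 in replicate 2.

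By gene the coenzyme A related pair was even: Slc25a16 was at 8.29 and 8.01 TPM and Slc25a42 at 8.43 and 7.12 TPM. Transcripts annotated as protein-coding held 99.6% and 100% of Slc25a16 TPM but 36.9% and 74.7% of Slc25a42 TPM. The coding Slc25a16-203 alone, at 5.67 and 6.20 TPM, was above the coding Slc25a42-201, at 3.11 and 5.31 TPM. Slc25a32, a carrier of folate and FAD, was at 4.21 and 4.53 TPM, and Slc25a17, the peroxisomal member, at 1.69 and 2.48 TPM. The pyrimidine nucleotide carrier Slc25a36 was at 2.50 and 3.94 TPM, and its paralog Slc25a33 at 1.99 and 0.78 TPM. Slc25a33 lay just under the threshold, as did Slc25a26, the S-adenosylmethionine carrier, at 1.31 and 0.85 TPM. Slc25a20, the carnitine/acylcarnitine carrier that serves fatty acid oxidation, was at 2.75 and 0.10 TPM on 327 and 2 counts. It thus passed 1 TPM in replicate 1 alone, and the authors' intervals of its posterior TPM, 2.45 to 3.05 and 0.0510 to 0.541, did not overlap.

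Of the 7 other members 2 were detected. Slc25a46, an outer membrane protein of mitochondrial dynamics, was at 16.93 and 22.23 TPM, and Slc25a47 at 2.60 and 2.27 TPM. Slc25a53 had 102 and 0 counts and Slc25a45 3 and 0. Slc25a43, Slc25a48 and Slc25a54 had 0 counts in both libraries. For the 8 carriers at 0 in both, 0 counts allow up to 3 counts, or 0.0420 CPM in replicate 1 and 0.212 CPM in replicate 2, and the upper bounds of the authors' intervals reached 0.0127 to 0.0836 TPM in replicate 1 and 0.0698 to 0.450 TPM in replicate 2. Such floors and the count intervals below cover counting error only.

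In 9 of the 11 paralog groups with counts in both libraries, the same gene led in both replicates. The exceptions were the pair of Slc25a10 and Slc25a11 and the pair of Slc25a16 and Slc25a42. These are leads by gene TPM. By the coding transcripts given above, Slc25a10 and Slc25a16 were the higher of their pairs in both libraries. Over CPM, which does not correct for length, Slc25a42 held 66.1% of its pair with Slc25a16 in both libraries.

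The replicates were then compared with each other over the carriers with a mean of at least 50 expected counts, 30 of 44. This mean is of raw counts, so the deeper replicate 1 weighs most in which genes pass. Slc25a53 (102 and 0 counts), Slc25a20 (327 and 2), Slc25a33 (250 and 17) and Slc25a30 (575 and 18) passed by replicate 1 alone. The filter thus favours genes lower in replicate 2, among the carriers and among all genes. TPM was over 2-fold higher in replicate 2 for 2 of the 30 carriers, Slc25a1 and Slc25a10, against 15.5% of all 9029 genes so compared. It was over 2-fold lower for 8 (35.4% of all genes): Slc25a39, Slc25a11, Slc25a44, Slc25a30, Slc25a5, Slc25a33, Slc25a20 and Slc25a53. The 10 of 30 that were apart either way stand beside 50.9% of all genes. With the median of all genes compared set to 0, 5 carriers were higher and 4 lower, beside 23.6% and 27.4% of all genes. Slc25a5 and Slc25a44 lay close to the limit: their log2 ratios, -1.11 and -1.03, were -0.92 and -0.93 with TMM scaling, -0.84 and -0.85 with DESeq2 size factors, and -0.69 and -0.61 with that median set to 0, all under 2-fold. Slc25a5 stood at 0.33, the other direction, in the table made from reads over its nuclear protein-coding genes. Slc25a39 (-0.72) and Slc25a33 (-0.93) were also under 2-fold with the median set to 0. The median log2 ratio of TPM, replicate 2 over 1, was -0.22 for the carriers and -0.42 for all genes compared. The authors' posterior intervals did not overlap between replicates for 13 of the 25 detected carriers, against 78.2% of detected protein-coding genes. Depth and erythroid markers differed between the same libraries, with 7 of the 12 markers over 2-fold lower in replicate 2 and 1 higher, and their part in the carriers' differences was not tested.

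**Figure D2:**
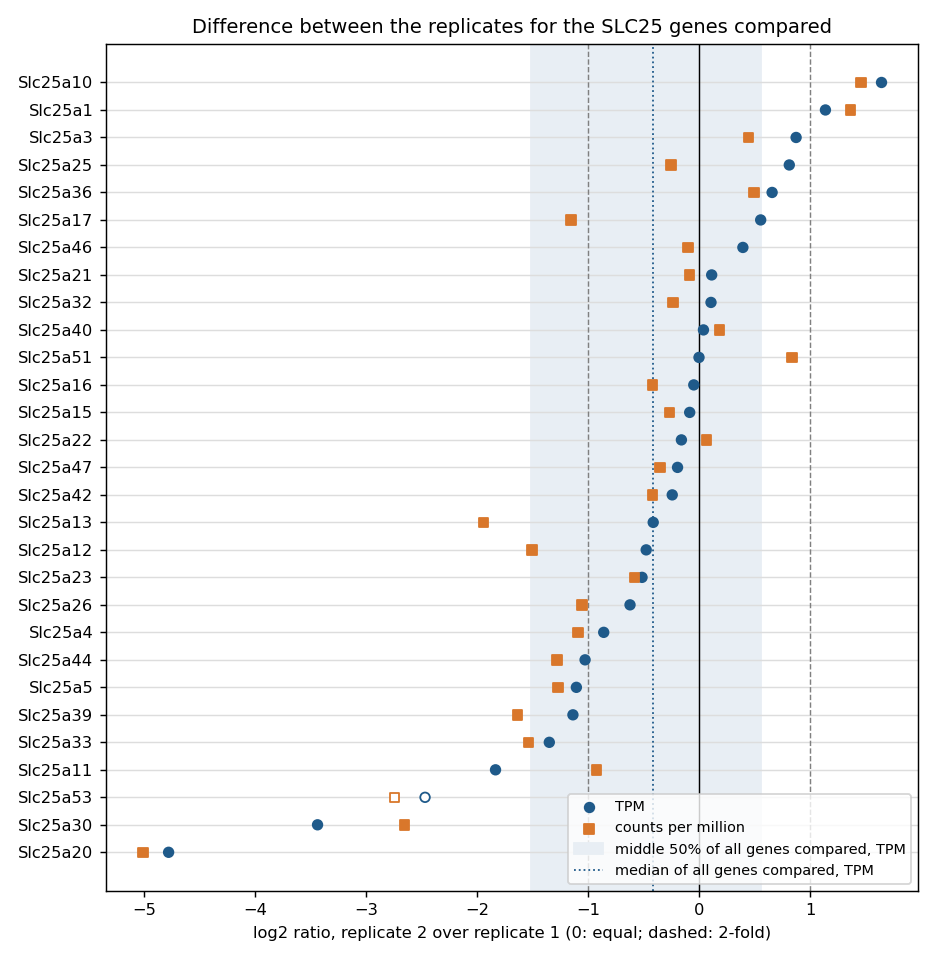
Log2 ratio of replicate 2 over replicate 1 for 29 of the carriers compared, in TPM (circles) and CPM (squares), with dashed lines at 2-fold, the shaded middle 50% of all genes compared and their median as a dotted line. Open symbols mark Slc25a53, whose 0 counts in replicate 2 are drawn at 3 counts, and Slc25a10 and Slc25a1 lie right of the 2-fold line in both units.

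In CPM the count over 2-fold lower in replicate 2 was 12 (41.3% of all genes) and the count higher was again 2 (9.67%). Slc25a4, Slc25a12, Slc25a13, Slc25a17 and Slc25a26 joined the lower ones and Slc25a11 left them. Slc25a1 was at 163 and 419 CPM, 2.57 times higher in replicate 2 (exact binomial 95% interval 2.49 to 2.65). Slc25a10 was 2.75 times higher (2.61 to 2.89). In the table made from reads as deposited, where the median of all genes compared was -1.69, the log2 ratios of Slc25a1 and Slc25a10 were -0.77 and -0.53. Over the nuclear protein-coding genes of that table they were 0.86 and 1.11, again higher in replicate 2, with Slc25a1 under 2-fold. Slc25a39 was at 766 and 246 CPM, 3.11 times higher in replicate 1 (3.01 to 3.22), a wider gap than its 2.20-fold difference in TPM. Slc25a20 was 32.3 times higher in replicate 1 with an interval from 8.87 to 268 that its 2 counts in replicate 2 leave wide. By counts, Slc25a53, with 0 in replicate 2, was at least 5.36 times higher in replicate 1 by the lower bound of the same kind of interval. It was 6.72 times higher with 3 counts put in place of the 0. The authors' posterior TPM of Slc25a53 did not show this gap. It was 1.37 (0.849 to 1.97) in replicate 1 and 2.34 (0.730 to 4.47) in replicate 2, with overlapping intervals. Slc25a17 changed sides with the unit: it was 1.47 times higher in replicate 2 in TPM and 2.23 times higher in replicate 1 in CPM (1.36 to 3.91). So did Slc25a25, 1.75 times higher in replicate 2 in TPM and 1.19 times higher in replicate 1 in CPM (1.06 to 1.35). Slc25a21, Slc25a22, Slc25a32 and Slc25a46 also changed sides, each under 2-fold in both units.

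Slc25a11 was 3.57 times higher in replicate 1 in TPM and 1.90 times in CPM (1.73 to 2.09), under 2-fold in the latter. Its effective length was 532 bases in replicate 1 and 1159 bases in replicate 2. Effective lengths over 1.5-fold apart between replicates were found in 6 of the 25 detected carriers, Slc25a11, Slc25a12, Slc25a17, Slc25a25, Slc25a30 and Slc25a51, against 19.2% of detected protein-coding genes. For these genes the TPM rests on which transcripts the quantification assigned.

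Transcript assignment was examined next, by splitting the TPM of a gene over its transcripts. In 6 of the 25 detected carriers less than 50% of TPM came from transcripts annotated as protein-coding in both replicates, against 21.1% of detected protein-coding genes. They were Slc25a4, Slc25a12, Slc25a30, Slc25a32, Slc25a40 and Slc25a46. All 6 were also under 50% in the table made from reads, which added Slc25a1 and Slc25a11 and so gave 8 such carriers (23.3% of detected protein-coding genes in that table, and 17.4% in both tables). Detected carriers had a median protein-coding share of 96.5% (replicate 1) and 86.8% (replicate 2), beside 91.7% and 94.6% for all detected protein-coding genes.

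**Figure D3:**
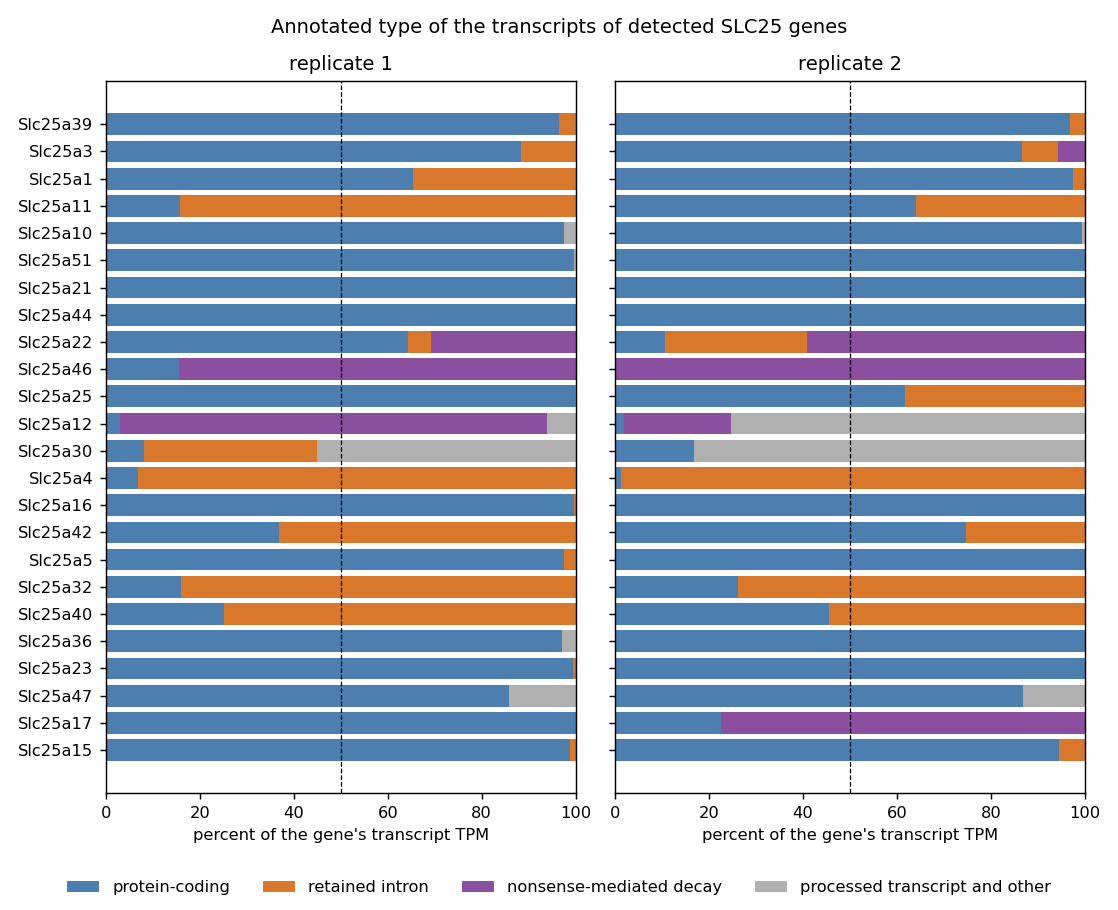
Percent of transcript TPM in 24 detected carriers by annotated transcript type, in replicate 1 (left) and replicate 2 (right), ordered by mean TPM, with a dashed line at 50%. Slc25a4, Slc25a12, Slc25a30, Slc25a32, Slc25a40 and Slc25a46 stay left of the line for the protein-coding part in both panels.

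For Slc25a4 the assignment was alike in both libraries. Slc25a4-202, which runs into the intron shown above, took 11.06 and 6.45 TPM, and the coding Slc25a4-201 took 0.80 and 0.08 TPM. The protein-coding share of Slc25a4 was therefore 6.75% and 1.23%, and the level of 11.86 and 6.53 TPM given for the gene is almost all of an annotated retained-intron transcript. Slc25a5, its paralog, had 97.6% and 100% on the coding Slc25a5-201. Counting coding transcripts alone, Slc25a5 stood above Slc25a4 in both libraries, the reverse of the order by gene.

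Slc25a12 was assigned to non-coding forms in both libraries, but not to the same ones. Slc25a12-207, without exon 4, took 12.30 TPM in replicate 1 and 2.23 TPM in replicate 2. Slc25a12-205, a processed transcript, took 0 and 7.32 TPM. Slc25a12-207 differs from Slc25a12-206 also in its last exon, 664 against 4291 bases, so the skipped exon is not the sole difference on which reads were assigned.

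For Slc25a11 the library with the higher level had the lower coding share. Slc25a11-205, with the intron of 85 bases, took 104.55 TPM in replicate 1 and 12.12 TPM in replicate 2, while the coding Slc25a11-201 took 16.37 and 22.31 TPM. The protein-coding share of Slc25a11 was 15.9% and 64.0%, but 14.4% and 37.1% in the table made from reads, where Slc25a11-205 led in both libraries. In the main table, by Slc25a11-201 alone replicate 2 was the higher library. Slc25a11-205 has 531 bases, Slc25a11-201 has 1711, and Slc25a11 shares 189 exon bases with Rnf167 on the opposite strand, which was at 117 and 71.5 TPM. No source used here states whether the counting was by strand, and the part of Rnf167 reads in these values was not tested.

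Slc25a46 was assigned mainly to Slc25a46-202, a transcript annotated for nonsense-mediated decay, with 14.31 and 22.18 TPM, and the coding Slc25a46-201 took 2.62 and 0.04 TPM. Slc25a32-202, a retained-intron transcript of 653 bases, took 3.54 and 3.34 TPM of its gene. Slc25a30-206, a processed transcript of 357 bases, took 11.39 and 1.59 TPM, and Slc25a40 had 25.1% and 45.6% on coding transcripts. With the older annotation M4, which gave 2 carriers under 50% in both replicates, 4 of these genes were over 1.5-fold lower by their mean. Slc25a30 was at 4.97 and 0.91 TPM under M4, Slc25a32 at 0.98 and 1.08 TPM, Slc25a40 at 1.43 and 0.84 TPM, and Slc25a46 at 8.67 and 9.77 TPM. Slc25a30, Slc25a32 and Slc25a40 thus missed the detection threshold under M4, as did Slc25a17 at 1.82 and 0.99 TPM.

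The leading transcript differed between replicates in 12 of the 25 detected carriers, against 35.9% of detected protein-coding genes with several transcripts. Slc25a3 was among them. Transcripts with form B of exon 3 took 115 TPM in replicate 1 and 37.9 TPM in replicate 2, and those with form A took 30.3 and 239 TPM. Form A thus made up 20.9% of both forms in replicate 1 and 86.3% in replicate 2, and the form with the higher level was not the same in the 2 libraries. The coding transcript Slc25a3-206 carried most of form A, at 30.27 and 222.14 TPM, and Slc25a3-201 most of form B, at 112.27 and 33.34 TPM.

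The turn of the 2 forms had the same direction in each quantification deposited. Form A made up 19.1% and 86.9% with annotation M4, 20.8% and 86.3% by the posterior means, and 1.39% and 63.3% in the table made from reads. In the last of these, form A was at 1.48 and 33.4 TPM and form B at 105 and 19.4 TPM. Slc25a3-206 and Slc25a3-201 also differ in their ends: the first exon has 88 against 144 bases and the last exon 333 against 551, so reads outside exon 3 enter the assignment too. Of the 300 TPM of Slc25a3 in replicate 2, 17.32 TPM were assigned to Slc25a3-202, a form annotated for nonsense-mediated decay that was at 0 in replicate 1.

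**Figure D4:**
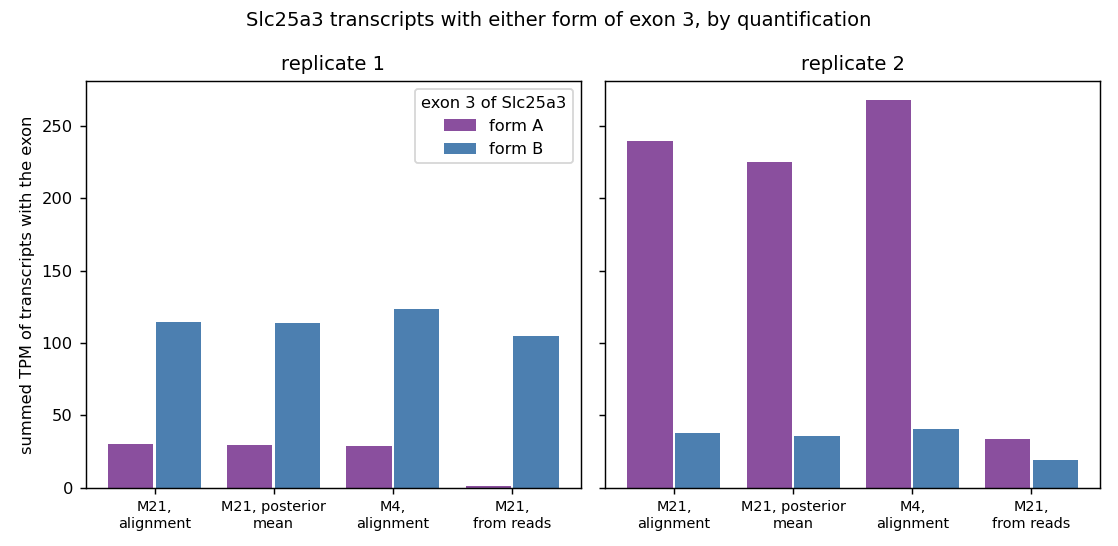
Summed TPM of Slc25a3 transcripts with form A (purple) or form B (blue) of exon 3 in replicate 1 (left) and replicate 2 (right), for 4 quantifications. Form B is the taller bar in each quantification of replicate 1 and form A in each of replicate 2, where the main table gives 239 against 37.9 TPM.

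Slc25a39 had 96.5% and 96.8% on coding transcripts, but spread over several. Slc25a39-206, of 679 bases, led in replicate 1 with 271.18 TPM against 56.96 TPM in replicate 2, and Slc25a39-205, of 728 bases, led in replicate 2 with 233.60 TPM against 192.37 TPM. The longer Slc25a39-201, of 1685 bases, took 248.65 and 44.16 TPM. In the table made from reads Slc25a39-201 led with 263 TPM in replicate 1, and the gene was at 363 and 46.3 TPM, or 491 and 194 TPM over its nuclear protein-coding genes alone.

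In 5 of the 12, among them Slc25a3, Slc25a39, Slc25a44 and Slc25a51, both leading transcripts were protein-coding, and in 7 at least one had another type. This split was not counted over all genes. Slc25a44-201 took 26.34 and 1.41 TPM and Slc25a44-203 took 0.57 and 13.94 TPM, both coding. Slc25a51 went from Slc25a51-205 to Slc25a51-202 in the main table. In the table made from reads Slc25a51-202 led in both libraries, with 36.9% and 64.1% of the gene. These changes of lead in the main table are between annotated coding forms and do not touch the coding share. Slc25a22 went from the coding Slc25a22-209, at 13.18 and 1.35 TPM, to Slc25a22-204, annotated for nonsense-mediated decay, at 6.58 and 11.44 TPM. Slc25a17 went from the coding Slc25a17-201, at 1.69 and 0.56 TPM, to the decay transcript Slc25a17-204, at 0 and 1.92 TPM on 6.03 expected counts. In the main table Slc25a22 and Slc25a17 thus had a coding lead in the deeper library and a decay transcript in the other. The table made from reads gave this for Slc25a22 alone, with Slc25a22-209 at 62.1% in replicate 1 and Slc25a22-204 at 73.6% in replicate 2. There the coding Slc25a17-201 led in both libraries, with 100% and 62.4%. Slc25a25 went from the coding Slc25a25-205, at 6.98 and 0 TPM, to Slc25a25-210, a retained-intron transcript of 277 bases at 0 and 7.53 TPM on 13.7 expected counts. In the table made from reads Slc25a25-205 again led in replicate 1, with 71.9%. Another retained-intron transcript, Slc25a25-207, led there in replicate 2 with 82.4%, and Slc25a25-210 held 1.68%. Slc25a42 took the other direction, from the retained-intron transcript Slc25a42-204, at 3.81 and 1.57 TPM, to the coding Slc25a42-201, at 3.11 and 5.31 TPM. Slc25a40 went from one retained-intron transcript, Slc25a40-208, to another, Slc25a40-204.

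At the gene level, expected counts were whole (within 0.005) in both replicates for all 25 detected carriers, against 88.5% of detected protein-coding genes. No fraction of a fragment was thus split between a detected carrier and another gene. Shared fragments given whole to 1 gene also leave whole counts, so these counts cannot show that none were shared. Slc25a3, Slc25a36, Slc25a40, Slc25a42 and Slc25a51 each have 1 annotated pseudogene copy at 90% identity or more, and all of these copies were at 0 TPM. Slc25a12 shares a stretch of 247 bases at 99.6% identity with Adpgk, which was at 2.25 and 7.50 TPM. Exons of 11 carriers overlap another gene on the opposite strand, among them Slc25a18 with Atp6v1e1, at 129 and 144 TPM, and Slc25a25 with Naif1, at 6.47 and 6.63 TPM. Such overlaps were not counted over all genes.

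The carriers can be set beside their neighbours in the same membranes. Ucp2, a family member with another kind of symbol, was at 2069 and 1548 TPM, above Slc25a39 in both libraries, while Ucp1 had 0 counts and Ucp3 2 and 1. Of the 3 family members left out by the rule, Slc25a37 was at 342 and 187 TPM, Slc25a38 at 149 and 135 TPM, and Slc25a28 at 24.9 and 14.1 TPM. Mtch1, an outer membrane insertase of the family, was at 128 and 310 TPM. Of 13 genes for the import of carrier proteins 10 were detected, and Timm10, a chaperone of the intermembrane space that carries these proteins, had 259 counts in replicate 1 and 0 in replicate 2. The outer membrane channels Vdac1, Vdac2 and Vdac3 were all detected, with 277 and 239 TPM in sum. Of 7 other inner membrane carriers, the pyruvate carrier subunits Mpc1 and Mpc2 and the serine carrier Sfxn1 were detected.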

How the data were processed

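Expression was analysed in 2 polyA plus libraries of 1 group. Per the labels the assembly is mm10, and the deposited tables are for GENCODE M21 and M4, made by the authors from an alignment, plus an M21 transcript table made from reads. No source used here names the tools. The authors' expected counts estimate the fragments of each gene or transcript and are not normalized. The deposited TPM values are scaled by length and to a fixed total, and the deposited signal columns are bounds of the authors' posterior TPM interval, at a level no source used here states.

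Main values are from the M21 gene table. Detection was 1 TPM in both replicates, and replicates were compared at 2-fold among genes with a mean of 50 expected counts or more, with a floor of 3 counts for genes at 0 and exact binomial 95% intervals of count ratios. The members and lists were chosen with earlier results of these data known. Text names the 10 highest carriers, paralog groups with a detected gene, carriers over 2-fold apart, those nearest the threshold and those at 0, and leading transcripts that differ; the remaining carriers and the neighbours named were added after their values were seen. Copies were searched with BLAST 2.17.0 at 90% identity over 200 bases. The values of 1 carrier are not reported here, though counts and sums over the family include it. The counting code was tested on simulated data. Alternatives used CPM, edgeR 4.0.16 and DESeq2 1.42.0 scaling of rounded counts, M4, the table made from reads and posterior means. Software was R 4.3.3 and Python 3.11.15 with pandas 2.3.3, numpy 2.4.6, matplotlib 3.10.9 and scipy 1.17.1.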

Additional observations from a re-analysis of the deposited data

How the results depend on the processing

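With 1 group no comparison of conditions exists. No paired analysis was possible because there is a single group. The number of carriers detected, 25, was 16 at a threshold of 5 TPM and 21 to 29 under the other alternatives run. The number at 10 TPM or more, 12, was 6 in the table made from reads. The median level, 1.81 as log2(TPM + 1), was 1.38 with M4, 1.40 in the table made from reads, 1.93 with posterior means, 2.22 in CPM, 2.21 with TMM and 2.21 with DESeq2 size factors, 2.24 in the table made from reads over nuclear protein-coding genes and 1.38 with a pseudocount of 0.1. Without either replicate it ran from 1.74 to 1.88. The carriers' share of TPM, 0.145%, was 0.0646% in the table made from reads, 0.130% in that table over nuclear protein-coding genes, and 0.186% in CPM. The number over 2-fold apart, 10 of 30 (50.9% of all genes), was 26 of 31 in the table made from reads (77.2% of all genes) and 5 of 31 in it over nuclear protein-coding genes (39.8%), an alternative chosen after seeing the data, as were posterior means for transcripts. It was 6 of 36 with no count filter on TPM + 1 (24.3%), and 5 of 30 at 3-fold (31.1%). The median log2 ratio, -0.22, was -1.74 in the table made from reads, where all genes stood at -1.69. It turned to 0.20 with the median of all genes set to 0 and to 0.15 with the trend in GC content removed. The share of Slc25a5, 40.5%, was 58.4% in the table made from reads. Carriers with under 50% of TPM on coding transcripts, 6, were 2 with M4. In the table made from reads, with all genes at -1.69, the log2 ratios of Slc25a1, Slc25a10 and Slc25a3 were -0.77, -0.53 and -1.05, and over its nuclear protein-coding genes 0.86, 1.11 and 0.59, the main direction. Slc25a5 turned to 0.33 in the latter. The cause of these shifts was not tested. Replicate 2 holds 14121747 counts, so its low carriers rest on few.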
